A study of Mus musculus with 2 samples.

Results

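Ion-pumping ATPases spend ATP to move ions against their gradients. Their genes were taken from the deposited array table by symbol: probe sets whose platform annotation names a single gene, and whose symbol belongs to the sodium, calcium, proton-potassium, copper or P5-type families or to the vacuolar proton pump, were kept. This gave 48 genes on 51 probe sets, out of 22180 named genes on an array table of 34472 probe sets. One of the 48, Atp6v1fnb, was matched by its name alone: it is the neighbour of Atp6v1f and belongs to no pump family, so counts of pump genes below are over 47 family members, whatever their present function. They divide into 5 sodium pump genes, 9 calcium pump genes, 23 genes of the vacuolar (V-type) proton pump and 10 other P-type ATPase genes. Counts below are over the genes analysed here and not over every gene of a family.

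The RNA came from ribosomes precipitated with an antibody to haemagglutinin (HA) from the medial prefrontal cortex of adult D2Cre::RiboTag mice. In these animals a Cre recombinase driven from Drd2, the dopamine D2 receptor gene, switches on an HA-tagged ribosomal protein, so that ribosomes and the RNA on them can be pulled out of the cells that carried Cre. The labels give 2 arrays of 1 group, called technical replicates of a pool of 5 mice and taken to share 1 pool. The sample titles call the RNA Drd2+ cell mRNA. All mice carried both alleles, any cell in which Cre was ever active would be tagged, and no unprecipitated or mock sample was analysed here. The values therefore show which pump transcripts gave signal in this RNA. They do not show enrichment over the cortex, and p-values between conditions are not possible with 1 group.

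In neurons the sodium pump restores the sodium and potassium gradients that firing runs down, and it takes a large part of the energy a neuron uses. Calcium pumps of the plasma membrane, the endoplasmic reticulum and the Golgi apparatus clear the calcium that enters through channels. The V-type pump is a rotary machine with a cytosolic ATP-splitting part, V1, and a membrane part that carries protons, V0. It acidifies lysosomes, and in nerve terminals the gradient it makes drives transmitter into synaptic vesicles.

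Signals are on a scale that the values show to be log2, and each mean is given with its SD over the 2 technical arrays. The background threshold of each array was set from 1394 sensory receptor genes of nose and vomeronasal organ, as their 95th percentile, which came to 5.61 for replicate 1 and to 5.66 for replicate 2. Genes over it on both arrays were called above background. It is a lenient cut, since 10 of 34 measured testis, liver and skeletal muscle genes were over it too. The stricter thresholds tried were the 99th percentile of the same receptor genes (6.64 on both arrays) and the 95th percentile of those 34 genes (7.22 and 6.97), here called the out-of-tissue threshold. Probe sets bind with different strength, so the signal of a gene is set against the thresholds and not against that of another gene. Medians over lists are given as descriptions and mix probe sets of different strength. Among markers, Drd2 itself was at 10.78 on replicate 1 and 10.70 on replicate 2, and all 7 pan-neuronal genes passed every threshold. So did all 4 markers of excitatory and all 6 of inhibitory neurons. All 10 astrocyte, 7 measured oligodendrocyte, 9 microglia and 7 mural cell markers were also above background, as were 7 of 8 endothelial markers. Over the out-of-tissue threshold were 6, 6, 3, 3 and 2 of them. The shares of all named genes were 60.3% above background and 38.7% over the out-of-tissue threshold. Of 6 choroid plexus and ependyma markers, 1 was above background and none was over the out-of-tissue threshold. In pulled-down RNA of this kind, fewer cells of a type and less RNA per cell cannot be told apart.

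Of the 47 pump genes, 37 were above background, beside 60.3% of all named genes. With the 99th percentile, 27 pump genes passed, beside 45.0% of named genes, and with the out-of-tissue threshold the same 27 passed, beside 38.7%. The median pump gene stood at 9.21, and the median of all named genes was 6.36. Pump genes fell into a high and a low set. No pump gene had a mean between Atp7a at 6.50 and Atp6v0e at 7.78, an interval that held 16.3% of all named genes. The 27 genes at and above Atp6v0e are the ones that passed both stricter thresholds, and the other 20 passed neither. This interval was seen in the data and then described.

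**Figure D1:**
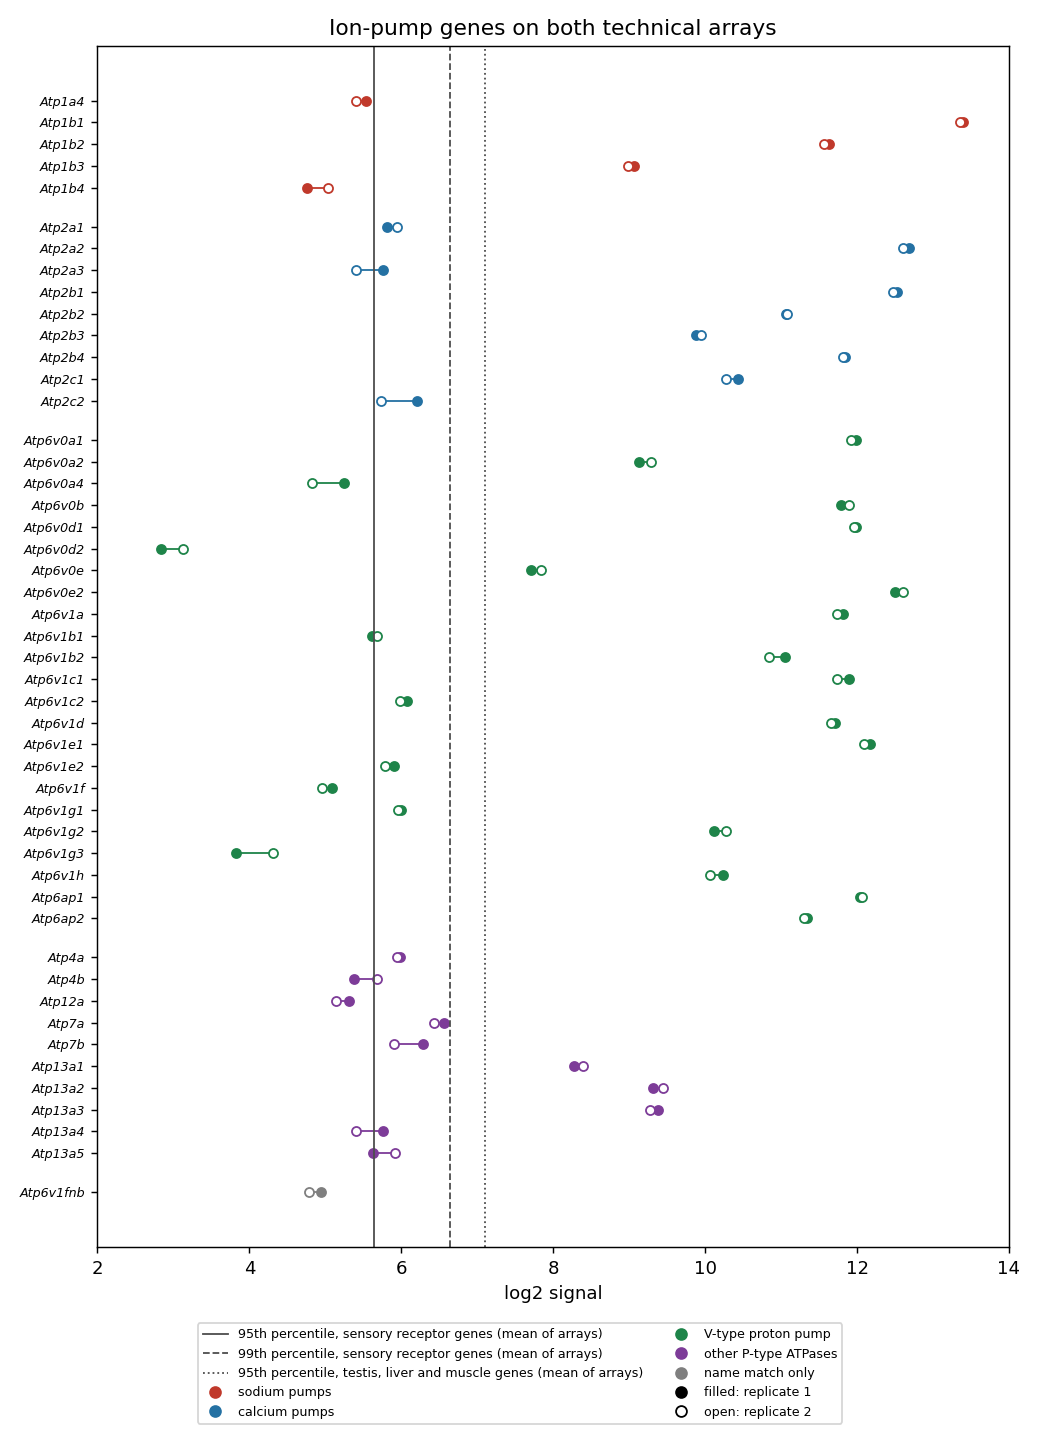
Each row is a gene and the horizontal axis is its log2 signal, with filled points for replicate 1, open points for replicate 2 and vertical lines for the mean of each threshold over the arrays. The points of a gene lie close together for the 27 genes right of all thresholds, and no pump gene lies between Atp7a and Atp6v0e.

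The beta subunits of the sodium pump bring it to the plasma membrane. Of the 5 sodium pump genes analysed here, 3 were above background, beside 60.3% of all named genes, and all 3 passed the stricter thresholds. Atp1b1, the beta subunit of most tissues and abundant in neurons, was at 13.40 on replicate 1 and 13.36 on replicate 2 (13.38 ± 0.03). Atp1b2, which encodes a beta subunit also known as an adhesion molecule of glia, was at 11.63 on replicate 1 and 11.56 on replicate 2 (11.60 ± 0.05). Atp1b3, the remaining widely expressed beta subunit, was at 9.06 on replicate 1 and 8.98 on replicate 2 (9.02 ± 0.06). All 3 were at least 3.32 log2 units over the background threshold on each array.

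The sodium pump genes known from other tissues stayed under the threshold on both arrays. Atp1a4, the alpha subunit of sperm, was at 5.54 on replicate 1 and 5.40 on replicate 2. Atp1b4, which in placental mammals encodes a protein of muscle nuclei and no longer a pump subunit but was kept as a family member, was at 4.76 on replicate 1 and 5.03 on replicate 2. Astrocyte markers had signal in the same RNA, from 5.72 for Gjb6 to 9.51 for Slc1a2. The first of them in the list, Gfap, Aqp4, Aldh1l1 and Slc1a3, had means of 6.67, 6.93, 7.40 and 8.64. Their part in the Atp1b2 signal was not tested.

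The promoters of Atp1b1, which gave signal, and Atp1b4, which did not, differ widely in the density of CpG dinucleotides, which over all named genes is also higher in genes with more signal. The 250 bases before the annotated start are printed 5′ to 3′ on the strand of the gene, from RefSeq on GRCm38.p6, with each CpG in capitals.
Atp1b1 (chr1:164458356-164458605, minus strand): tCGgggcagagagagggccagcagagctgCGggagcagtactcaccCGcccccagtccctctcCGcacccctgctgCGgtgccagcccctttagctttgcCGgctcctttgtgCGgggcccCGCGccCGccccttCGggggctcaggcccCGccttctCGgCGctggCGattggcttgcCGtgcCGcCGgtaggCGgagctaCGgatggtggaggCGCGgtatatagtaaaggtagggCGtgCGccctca
Atp1b4 (chrX:38315872-38316121, plus strand): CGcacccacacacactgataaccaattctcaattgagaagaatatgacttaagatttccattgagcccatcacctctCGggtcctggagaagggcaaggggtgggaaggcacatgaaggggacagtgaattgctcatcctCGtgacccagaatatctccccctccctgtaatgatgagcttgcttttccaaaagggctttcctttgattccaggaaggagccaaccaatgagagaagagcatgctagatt
The Atp1b1 stretch holds 24 CpG dinucleotides and the Atp1b4 stretch 3.

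Proteins that accompany the sodium pump were counted against the same threshold, which 60.3% of all named genes passed. Of 10 measured regulators (FXYD proteins, which are small membrane proteins that tune the pump, and NKAIN proteins, which bind its beta subunit), 8 were above background, and the list's median was 7.91. Fxyd1, phospholemman, was at 8.01 ± 0.15, and Fxyd5 was at 6.98 ± 0.16. The 2 that were not above background, Fxyd2 at 5.32 ± 0.33 and Fxyd4 at 5.14 ± 0.45, are known from kidney. Fxyd6 at 11.31 ± 0.06 and Fxyd7 at 11.47 ± 0.21, both known from brain, were picked out after their values were seen.

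Calcium pump genes were above background in 8 of 9 cases, beside 60.3% of all named genes, with a median of 10.36. The stricter thresholds, which 45.0% and 38.7% of named genes passed, were passed by 6. These 6 cover the endoplasmic reticulum, the plasma membrane and the Golgi apparatus. Atp2a2 encodes SERCA2, the pump of the endoplasmic reticulum in most cells, and was at 12.69 on replicate 1 and 12.61 on replicate 2 (12.65 ± 0.06). Atp2c1, which carries calcium and manganese into the Golgi, was at 10.43 on replicate 1 and 10.28 on replicate 2 (10.36 ± 0.11).

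All 4 plasma membrane calcium pump genes were in the high set. They thus passed the stricter thresholds, which 45.0% and 38.7% of named genes passed. Atp2b1, the housekeeping member, was at 12.53 on replicate 1 and 12.47 on replicate 2. Atp2b4 was at 11.84 on replicate 1 and 11.82 on replicate 2. Atp2b2 and Atp2b3, the fast isoforms known mainly from neurons, were at 11.06 and 11.08 and at 9.88 and 9.95. Their arrays differed by at most 0.07, and the lowest of their signals was 4.27 over its background threshold.

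The 3 remaining calcium pumps are known from other tissues and stayed close to the threshold. Atp2a1, the fast muscle SERCA, was at 5.81 on replicate 1 and 5.94 on replicate 2, which is 0.20 and 0.28 over the thresholds. Atp2a3, known from blood cells and some epithelia, passed on replicate 1 alone, at 5.76 on replicate 1 and 5.40 on replicate 2. Atp2c2, the secretory epithelium counterpart of Atp2c1, was at 6.21 on replicate 1 and 5.73 on replicate 2, and its arrays differed by 0.48. None of the 3 passed a stricter threshold.

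Partners of the calcium pumps were above background about as often as named genes in general (60.3%). Of 7 measured genes, 4 passed, and their list's median was 6.10. Pln at 5.54 ± 0.39, Sln at 4.57 ± 0.33 and Mrln at 4.42 ± 0.06, micropeptides that restrain SERCA in muscle, were the 3 that were not. Nptn, a partner of the plasma membrane pumps, was at 12.44 ± 0.01. The sodium-calcium exchangers, which share the work of calcium clearance, were above background in 7 of 7 cases with a median of 9.90, among them Slc8a1 at 9.61 ± 0.07, Slc8a2 at 11.20 ± 0.09, Slc8a3 at 8.17 ± 0.04 and Slc24a2 at 11.39 ± 0.00.

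Genes of the V-type proton pump were above background in 19 of 23 cases, beside 60.3% of all named genes, with a median of 10.20. The stricter thresholds, which 45.0% and 38.7% of named genes passed, were passed by 15. Both parts of the machine were represented: 6 of 8 V0 genes, 11 of 13 V1 genes and both accessory genes were above background, and 6, 7 and 2 passed the stricter thresholds.

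In the membrane part V0, the large subunit a exists in several isoforms that decide where the pump goes. Atp6v0a1, the isoform of nerve terminals, was at 11.98 on replicate 1 and 11.92 on replicate 2 (11.95 ± 0.04), and Atp6v0a2, known from the Golgi and endosomes, at 9.13 on replicate 1 and 9.29 on replicate 2 (9.21 ± 0.11). The kidney isoform Atp6v0a4 was under the threshold, at 5.25 on replicate 1 and 4.82 on replicate 2. The next pair shows the same pattern. Atp6v0d1, the ubiquitous subunit d, was at 11.98 on replicate 1 and 11.96 on replicate 2, whereas Atp6v0d2, known from osteoclasts and kidney, was at 2.84 on replicate 1 and 3.12 on replicate 2, more than 2 log2 units under the threshold on each array. Atp6v0b, a proteolipid of the rotor ring, was at 11.79 on replicate 1 and 11.89 on replicate 2. The small subunit e was above every threshold from both of its genes, with Atp6v0e at 7.71 on replicate 1 and 7.84 on replicate 2 and Atp6v0e2 at 12.50 on replicate 1 and 12.60 on replicate 2.

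The stretches before the starts of Atp6v0a1, with signal, and its kidney counterpart Atp6v0a4, without, are shown as a pair in which both are poor in CpG dinucleotides, again in capitals.
Atp6v0a1 (chr11:101010148-101010397, plus strand): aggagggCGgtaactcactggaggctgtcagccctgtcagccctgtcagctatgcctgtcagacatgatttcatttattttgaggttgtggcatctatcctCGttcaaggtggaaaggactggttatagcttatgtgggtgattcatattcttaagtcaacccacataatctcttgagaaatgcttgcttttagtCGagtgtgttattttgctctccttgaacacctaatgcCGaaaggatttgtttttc
Atp6v0a4 (chr6:38124587-38124836, minus strand): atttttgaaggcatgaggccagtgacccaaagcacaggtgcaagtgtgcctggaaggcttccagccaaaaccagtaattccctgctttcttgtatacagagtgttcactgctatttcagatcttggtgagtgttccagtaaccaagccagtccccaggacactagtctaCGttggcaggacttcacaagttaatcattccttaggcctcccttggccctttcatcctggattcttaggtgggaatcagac
They hold 4 and 1 CpG dinucleotides, so the wide gap between the beta subunits was not seen here.

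In the cytosolic part V1, the subunits that split ATP are A and B. Atp6v1a was at 11.82 on replicate 1 and 11.74 on replicate 2 (11.78 ± 0.06). Atp6v1b2, the B isoform of brain, averaged 10.95 ± 0.14 over 2 probe sets, one at 12.58 and 12.51 and one at 9.51 and 9.18, both above every threshold. Atp6v1b1, the B isoform of kidney and inner ear, was at 5.62 on replicate 1 and 5.68 on replicate 2, over the thresholds by 0.01 and 0.02, the narrowest call among the pumps. Of the stalk and regulatory subunits that most cells use, these were in the high set: Atp6v1c1 was at 11.89 and 11.73 on replicates 1 and 2, Atp6v1d at 11.71 and 11.66, Atp6v1e1 at 12.17 and 12.09 and Atp6v1h at 10.23 and 10.06. Their restricted counterparts were not: Atp6v1c2 was at 6.08 and 5.98 and the testis isoform Atp6v1e2 at 5.91 and 5.78, above background but under both stricter thresholds.

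Subunit G has 3 genes with different values. The neuronal isoform Atp6v1g2 was at 10.12 on replicate 1 and 10.27 on replicate 2. The kidney isoform Atp6v1g3 was under the threshold at 3.82 on replicate 1 and 4.31 on replicate 2. The ubiquitous Atp6v1g1 averaged 5.98, but its 3 probe sets disagreed: one was at 9.55 and 9.63, above every threshold, and the others were at 3.76 and 3.73 and at 4.69 and 4.50, below all of them. The mean of this gene is thus above background only because of 1 probe set.

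Atp6v1f, the only gene for subunit F of V1, was under the threshold on both arrays, at 5.09 on replicate 1 and 4.95 on replicate 2. It has 1 probe set, and it was the only subunit gene known from brain that was not above background. Atp6v1fnb, whose gene starts 927 bases past the end of Atp6v1f in RefSeq, was also under the threshold, at 4.94 on replicate 1 and 4.79 on replicate 2. The accessory subunits were well above it, with Atp6ap1, which helps assemble the pump, at 12.04 and 12.06 on replicates 1 and 2 and Atp6ap2, the prorenin receptor, at 11.34 and 11.30.

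Genes listed as assembling or regulating the V-type pump, with Tcirg1 among them, were above background in 13 of 13 cases, beside 60.3% of all named genes. Their median was 9.07, and 10 passed the stricter thresholds, beside 45.0% and 38.7% of named genes. Tcirg1 was at 6.53 ± 0.04. It encodes the isoform of subunit a known from osteoclasts and immune cells, a V0 subunit whose symbol the selection does not match. The assembly factors Vma21, Tmem199 and Ccdc115 were at 6.51 ± 0.12, 8.90 ± 0.02 and 7.67 ± 0.06. Tcirg1, Vma21 and, named after its value was seen, Tldc2 (with 5.76 and 5.83 on replicates 1 and 2) did not pass the stricter thresholds.

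The other P-type ATPases were above background in 7 of 10 cases, beside 60.3% of all named genes, with a median of 6.03. Only 3 of them passed the stricter thresholds, which 45.0% and 38.7% of named genes passed. All 3 belong to the P5 family, which is known for moving polyamines and membrane proteins rather than simple ions. Atp13a1, of the endoplasmic reticulum, was at 8.28 on replicate 1 and 8.39 on replicate 2. Atp13a2, the lysosomal polyamine exporter that is mutated in a hereditary parkinsonism, was at 9.31 on replicate 1 and 9.45 on replicate 2, and Atp13a3 was at 9.38 on replicate 1 and 9.27 on replicate 2. Atp13a4 passed on replicate 1 alone, at 5.76 on replicate 1 and 5.40 on replicate 2. Atp13a5, known as a gene of brain pericytes, was at 5.63 on replicate 1 and 5.92 on replicate 2, over the thresholds by 0.02 and 0.26. All 7 mural cell markers had signal above background, with Pdgfrb, Rgs5, Kcnj8 and Abcc9 at means of 7.21, 6.96, 5.85 and 6.23, and their part in the Atp13a5 signal was not tested.

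The copper pumps lay between the thresholds. Atp7a, which delivers copper to enzymes in most tissues, was at 6.56 on replicate 1 and 6.43 on replicate 2, and Atp7b, known from liver, at 6.28 on replicate 1 and 5.90 on replicate 2. Neither passed the 99th percentile. All 5 measured copper uptake and chaperone genes were above background, beside 60.3% of all named genes. Slc31a1, Slc31a2, Atox1 and Ccs had means of 7.15, 7.31, 8.51 and 7.68. The proton-potassium pumps of stomach and colon lay near or under the background threshold. Atp4a, the catalytic subunit of the stomach pump, was at 5.98 on replicate 1 and 5.94 on replicate 2, its partner Atp4b passed on replicate 2 alone at 5.38 on replicate 1 and 5.68 on replicate 2, and Atp12a, of the colon, was under the threshold at 5.31 on replicate 1 and 5.14 on replicate 2.

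Divided by where textbooks place each isoform, 30 pump genes were listed as known from brain or from most tissues and 17 mainly from elsewhere. Atp13a5 was counted among the 17, although it is known from pericytes of the brain. The placing of Atp13a4 among them is also open to question. Of the 30, 29 were above background and 27 passed the stricter thresholds, with a median of 11.20. Of the 17, 8 were above background, none passed a stricter threshold, and the median was 5.58. For all named genes, 60.3% were above background, and 45.0% and 38.7% passed the stricter thresholds. The highest of the 17 was Atp7b, at a mean of 6.09. The 3 genes of the first kind in the low set were Atp6v1f, Atp6v1g1 and Atp7a. Atp6v1g1 was placed there by the mean of 3 probe sets that disagreed. This grouping rests on general knowledge of the genes and was written with earlier results of these arrays known, so it is a description of them.

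**Figure D2:**
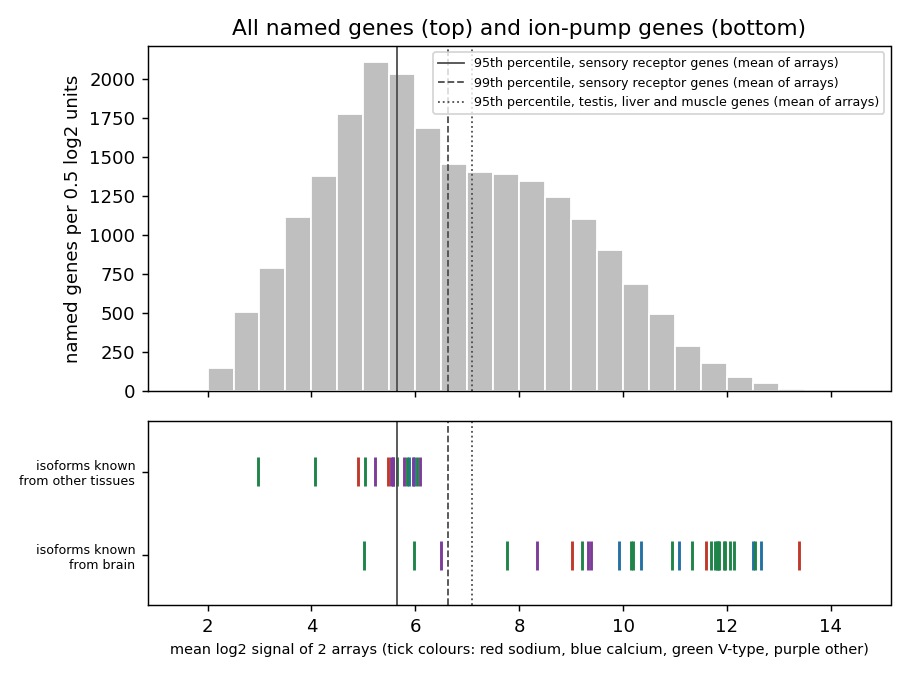
The upper panel counts all 22180 named genes by mean log2 signal in steps of 0.5, and the lower panel marks each of the 47 pump genes, divided by the tissue its isoform is known from. All 17 isoforms placed with other tissues, Atp13a5 of brain pericytes among them, lie left of the dashed 99th percentile. Of the 30 placed with brain or most tissues, 27 lie right of the dotted out-of-tissue threshold.

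Windows from 250 bases before to 50 after an annotated start were available from RefSeq on GRCm38.p6 for 34 of the 47 pump genes and for 16986 named genes, and where a gene had several the one richest in CpG was used. The 19 pump genes of the high set held a median of 21 CpG dinucleotides per window and the 15 of the low set a median of 6. Over all named genes the same cut, at the mean signal of Atp6v0e, gave medians of 24 and 7, a difference in the same direction. The sets overlap. Atp2b4, with a mean of 11.83, had 4 CpG dinucleotides and Atp6v0a1, at 11.95, had 7, while Atp7b, Atp2a3, Atp7a and Atp6v1c2 in the low set had 26, 25, 22 and 22. The window of Atp6v1f, which gave no signal above background, held 17, the same as that of Atp6ap1.

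**Figure D3:**
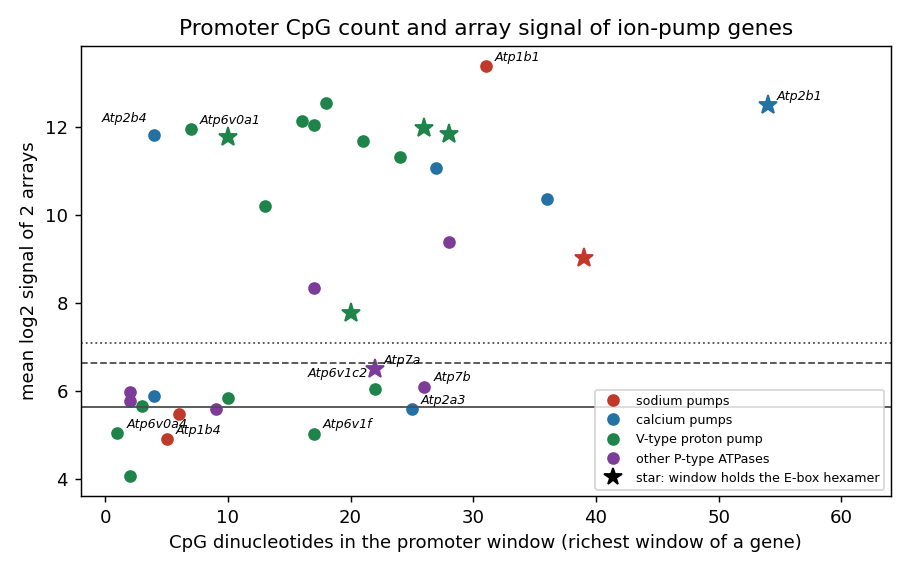
Each point is 1 of the 34 pump genes with a promoter window: the horizontal axis is the number of CpG dinucleotides in the richest window, the vertical axis is the mean log2 signal, and the horizontal lines are the thresholds of the other plots. Windows with few CpG dinucleotides are mostly those of low genes, with Atp2b4 and Atp6v0a1 as exceptions. Stars mark the 7 genes with CACGTG in any of their windows, which need not be the richest.

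The letters CACGTG, the E-box that is read the same on both strands, were searched in every window of a gene. For genes with several windows, a match in any of them counted. CACGTG was chosen because the longer TCACGTGA around it is the core of the element known to be bound by TFEB, a regulator of lysosomal genes. CACGTG was found in the windows of 7 of 34 pump genes, beside 9.19% of named genes with a window, and in 7.15% of all 32841 windows. Every TCACGTGA match contains a CACGTG match, and the longer form was found in 5 of the 34, beside 1.44% of named genes with a window. Among the V-type genes, 4 of 17 had CACGTG and 3 had TCACGTGA. These counts are descriptions of letters, and the motifs were chosen after the calls were known. The element is known from lysosomal genes, so its presence in V-type genes is no independent finding. The 30 bases around each match are shown 5′ to 3′ on the strand of the gene, with CACGTG in capitals, so that the bases on either side can be compared.
Atp6v0b (chr4:117887348-117887377, minus strand): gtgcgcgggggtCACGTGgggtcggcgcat
Atp6v0b (chr4:117887330-117887359, minus strand): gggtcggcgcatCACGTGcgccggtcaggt
Atp6v0d1 (chr8:105566050-105566079, minus strand): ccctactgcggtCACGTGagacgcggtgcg
Atp6v0e (chr17:26676387-26676416, plus strand): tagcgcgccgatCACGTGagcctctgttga
Atp6v1a (chr16:44139373-44139402, minus strand): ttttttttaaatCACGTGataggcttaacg
Atp7a (chrX:106027125-106027154, plus strand): cgtgctccctttCACGTGacgtggaccatt
Atp2b1 (chr10:98914638-98914667, plus strand): cgcgggccgcgtCACGTGaccgcgcccagc
Atp1b3 (chr9:96363919-96363948, minus strand): ccgagcggggcaCACGTGctgccggttccc
The match extends to TCACGTGA in Atp6v0d1, Atp6v0e, Atp6v1a, Atp7a and Atp2b1. The matches of Atp6v0d1, Atp6v0e and Atp2b1 begin at -3, 4 and 9 relative to the annotated start, whereas those of Atp6v1a and Atp7a begin at -131 and -87. Of the 7 genes with CACGTG, 6 were in the high set and Atp7a was not, while 19 of all 34 pump genes with a window were in that set. Over all named genes with a window, CACGTG was in 12.3% of those at or above the mean of Atp6v0e and in 7.68% of those under it. For TCACGTGA these shares were 2.48% and 0.922%. Atp1b3 and Atp2b1 have 2 windows each, and the match lies in 1 of them.

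The arrays repeated each other well for the pumps of the high set and less well for the others. Among the 27 genes of the high set, the array-to-array difference had an SD of 0.105, its median size was 0.08 and its largest was 0.20, for Atp6v1b2. The 7038 named genes with means at or above that of Atp6v0e had an SD of 0.117 and the same median size. Of the 27, 17 were higher on replicate 1, which is 63.0%, beside 58.2% of those named genes. For the 21 genes under the interval, Atp6v1fnb included, the SD of the difference was 0.271, and 10 of the 21 differed by more than 0.25. The 11537 named genes with means no higher than that of Atp7a had the same SD of 0.271, and 31.2% of them differed by more than 0.25. The largest differences were those of Atp6v1g3, higher on replicate 2 by 0.49, and Atp2c2, which fell by 0.48 from replicate 1 to replicate 2. Calls that hang on 1 array, those of Atp2a3, Atp4b and Atp13a4, all lie in this low range, where the background threshold itself lies.

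**Figure D4:**
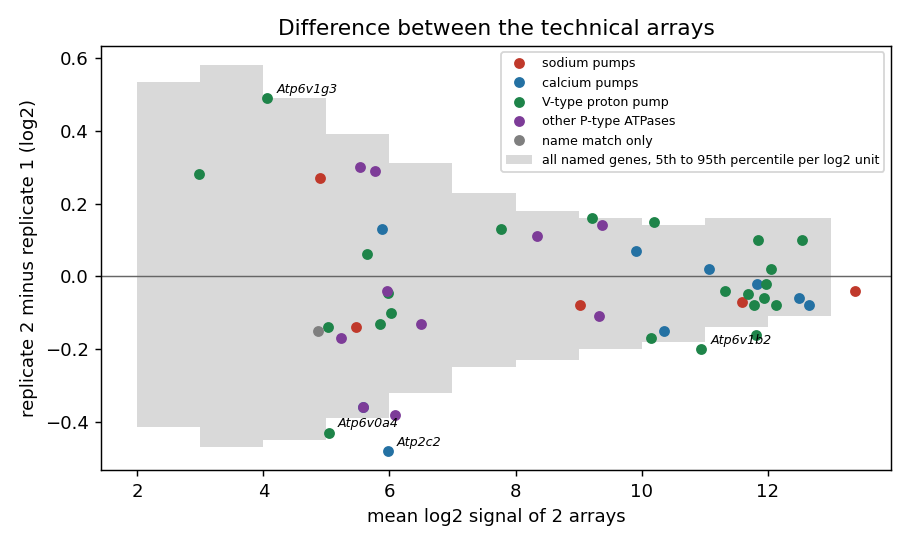
The horizontal axis is the mean log2 signal and the vertical axis is replicate 2 minus replicate 1, with coloured points for the 48 genes and a grey band, drawn per log2 unit, from the 5th to the 95th percentile of all named genes. Of the 48, 41 lie inside the band of their log2 unit, 1 above it (Atp6v1g2) and 5 below it (Atp2c2, Atp6v0a4, Atp6v1b2, Atp6v1c1 and Atp7b), and Atp1b1 lies where too few genes were present to draw a band.

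Related ATPases outside the ion pumps were counted in the same way. Of all named genes, 60.3% were above background and 38.7% were over the out-of-tissue threshold. The F-type ATP synthase of mitochondria, the rotary relative that makes ATP, was above background in 16 of 18 genes whose symbol starts with Atp5, with a median of 10.03 and 13 over the out-of-tissue threshold. The 2 that were not are Atp5j2 and the pseudogene Atp5c1-ps. The P4 flippases and their partners, which move lipids and not ions, were above background in 11 of 16 cases, with a median of 6.84 and 7 over the out-of-tissue threshold. The pumps stood at 27 of 47 over that threshold. The differences between these lists were not tested, because their probe sets differ and there is 1 group.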

How the data were processed

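Ribosome-bound RNA from a pool of 5 mice was labelled with biotin by the Affymetrix WT Plus protocol, per the labels, and run on 2 arrays. The deposited table holds 1 log2 signal per probe set and array. The log scale was inferred from the values, and background correction, summarisation, normalization and genome build were not given in the sources used here. Of 34472 probe sets, 23521 named 1 gene, 1814 several and 9137 are unnamed here. Probe sets of a gene were averaged (46 of the 48 members have 1). Gene identifiers of all 48 members matched RefSeq (GRCm38.p6), with the same symbols. Some items are not reported here.

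Calls and counts were made in Python 3.11.15 with pandas 2.3.3 and tested on simulated data. With 1 group of technical replicates there is no test, and SDs cover technical spread only. The number of arrays limits the precision. Members, lists, the grouping by tissue and thresholds were chosen with earlier results of these data known. All members may be named. From other lists, the first 4 measured genes and those on the minority side of the threshold are named, and others are marked. A planned comparison of protein sequences was not made, for lack of a protein table, and promoter windows were examined in its place. The alternatives were both stricter thresholds, the highest or lowest probe set of a gene, quantile normalization and each array alone.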

Additional observations from a re-analysis of the deposited data

How the results depend on the processing

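The 27 genes of the high set kept their call under all 7 alternatives. The set was described by means at or above that of Atp6v0e, over every threshold tried, so this outcome was largely fixed beforehand. Quantile normalization changed 0 of 48 calls. The 99th percentile of sensory receptor genes and the out-of-tissue threshold each removed the same 10 calls: Atp2a1, Atp2c2, Atp6v1b1, Atp6v1c2, Atp6v1e2, Atp6v1g1, Atp4a, Atp7a, Atp7b and Atp13a5. The other P-type ATPases above background thereby went from 7 to 3 under each of these thresholds. The lowest probe set of a gene ended the call of Atp6v1g1, and the highest one that of Atp6v1b1, which has 1 probe set, as the threshold of replicate 1 rose from 5.61 to 5.62, its signal there. The highest probe set put Atp6v1g1 at a mean of 9.59, within the range of the high set. Without replicate 1 the call of Atp4b was gained, and without replicate 2 those of Atp2a3 and Atp13a4, so that pump genes above background ranged from 38 to 39. The median of the V-type genes went from 10.20 to 10.15 with the lowest probe set and ranged from 10.23 to 10.27 on single arrays. The out-of-tissue threshold rests on 34 genes, and its upper end on Acta1 and Odf1, with means of 7.99 and 7.50. No paired analysis was possible because there is 1 group.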
